A study of Mus musculus with 12 samples.

Results

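Hox genes encode homeodomain transcription factors that give cells their position along the head-to-tail axis. The members described here are the array features that carry exactly 1 gene symbol of the form Hoxa to Hoxd followed by a paralog number. There were 37 such genes, each with 1 probe set, of 19938 genes with a symbol of their own on the array. They were 10 genes of the Hoxa cluster on chromosome 6, 9 of Hoxb on chromosome 11, 9 of Hoxc on chromosome 15 and 9 of Hoxd on chromosome 2. Hoxb8 shared its feature with Hoxb7 and was left out.

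In each cluster the genes lie in the order of their paralog numbers. Low-numbered genes are switched on early and towards the head, and high-numbered genes late and towards the tail, an arrangement called colinearity. The gut keeps such a code into adult life, and the genes of the highest paralog group mark the hindgut, from which the distal colon and rectum form. Neighbouring genes in a cluster can share control regions, so a cluster can act in blocks.

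Total RNA from colon of 12 C57BL/6 mice was measured, 1 array per mouse, in 4 groups of 3. TSP-1-/- mice carry a targeted mutation of the thrombospondin 1 gene, which leaves a gene behind but gives no protein, in every cell type. WT AOM/DSS and TSP-1-/- AOM/DSS mice received 1 injection of the carcinogen azoxymethane (AOM) at 10 mg/kg and 4 cycles of 7 days of 1.5% dextran sulfate sodium (DSS) in the drinking water, an agent that damages the colonic lining and so causes colitis. They were male, 7 weeks old at the start and killed 15 weeks after AOM, and the study describes the tissue both as excised tumors and as normal and diseased colon. WT water and TSP-1-/- water mice received neither agent, and the array labels of the water mice carry protocol text of a different DSS experiment. Neither labels nor methods state from which stretch of the colon, or from how much of its wall, each RNA came.

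All values are log2 signals relative to a baseline that the authors set for each probe. That baseline differs between genes and, as the values show, between the AOM/DSS set and the water set. Levels were therefore compared only within 1 gene and within 1 set of 6 arrays, and no AOM/DSS array was set against a water array. The thrombospondin 1 transcript, Thbs1, stood at 0.27, -0.16 and -0.07 on the WT AOM/DSS arrays and at 0.81, 0.85 and 0.93 on the TSP-1-/- AOM/DSS arrays. On water the genotypes overlapped, at -1.36, -0.99 and -0.47 in WT and at -0.001, -0.96 and -1.15 in TSP-1-/-. Since the mutated gene is still transcribed, this transcript does not check the genotype labels.

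The promoters printed here are those of Hoxa13, Hoxd4 and Hoxd13, which stood among the members with wide differences between arrays and had an entry in the RefSeq promoter table of build GRCm38.p6. Each run is the 250 bases before the annotated start, 5′ to 3′ on the strand of the gene. Capitals mark TTTATG, the core bound by the caudal factors CDX, or TGATTNAT, a joint site of Hox and PBX proteins, on either strand.
Hoxa13, chr6:52260881-52261130, minus strand: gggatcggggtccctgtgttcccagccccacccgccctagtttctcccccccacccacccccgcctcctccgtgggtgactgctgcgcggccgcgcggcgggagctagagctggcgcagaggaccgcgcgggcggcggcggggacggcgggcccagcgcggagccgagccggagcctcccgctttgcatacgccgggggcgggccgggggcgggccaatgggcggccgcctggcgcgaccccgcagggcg
Hoxd4, chr2:74721728-74721977, plus strand: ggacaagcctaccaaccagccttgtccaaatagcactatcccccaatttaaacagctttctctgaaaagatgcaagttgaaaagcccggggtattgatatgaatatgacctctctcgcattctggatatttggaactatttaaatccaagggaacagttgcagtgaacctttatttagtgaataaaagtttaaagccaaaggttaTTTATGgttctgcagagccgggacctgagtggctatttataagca
Hoxd13, chr2:74667975-74668224, plus strand: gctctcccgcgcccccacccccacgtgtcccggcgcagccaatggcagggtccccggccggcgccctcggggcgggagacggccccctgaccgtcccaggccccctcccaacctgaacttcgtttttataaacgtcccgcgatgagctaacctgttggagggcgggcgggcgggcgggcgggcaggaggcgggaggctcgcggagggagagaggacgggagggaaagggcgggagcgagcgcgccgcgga
Hoxd4 held 1 match to TTTATG, and the windows of Hoxa13 and Hoxd13 held neither motif. GC content was 80% for Hoxa13, 74.4% for Hoxd13 and 40.4% for Hoxd4. Of 23 promoter windows of 21 measured Hox genes, 4 held TTTATG (17.4%), in Hoxa7, Hoxd3, Hoxd4 and Hoxd11. Among all 32851 windows of this length, 10.8% held it. TGATTNAT was present in 2 Hox windows (8.70%), those of Hoxa2 and Hoxd11, and in 2.82% of all windows. A match is a stretch of letters and not evidence of binding.

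The microRNA genes of the miR-196 and miR-10 families sit inside the Hox clusters and are shown because their features on the array are read beside those of their neighbours. Capitals mark the seed, bases 2 to 8, and the sequences are RefSeq's for build GRCm38.p6.
mmu-miR-196a-5p: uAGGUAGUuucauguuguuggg
mmu-miR-196b-5p: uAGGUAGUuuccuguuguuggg
mmu-miR-10a-5p: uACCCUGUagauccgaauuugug
mmu-miR-10b-5p: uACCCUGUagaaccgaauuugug
The miR-196 forms share the seed AGGUAGU, and the miR-10 forms share ACCCUGU.

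The Hox genes varied between arrays far more than most genes. Over the 6 AOM/DSS arrays the range of a Hox gene, highest minus lowest log2 value, had a median of 1.89, and the median range over all probes was 0.76. A range of 2 log2 units or more was seen for 18 of 37 Hox genes, against 5.37% of all 28815 probes. On the water arrays the median range was 0.77 for Hox genes and 0.44 for all probes. A range of 2 or more was reached there by Hoxa13, Hoxb13 and Hoxd13, 3 of 37, against 1.01% of all probes. By cluster, the AOM/DSS range reached 2 in 6 of 10 Hoxa, 5 of 9 Hoxb, 1 of 9 Hoxc and 6 of 9 Hoxd genes. In whole tissue, fewer cells of a type and less RNA per cell cannot be told apart.

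**Figure D1:**
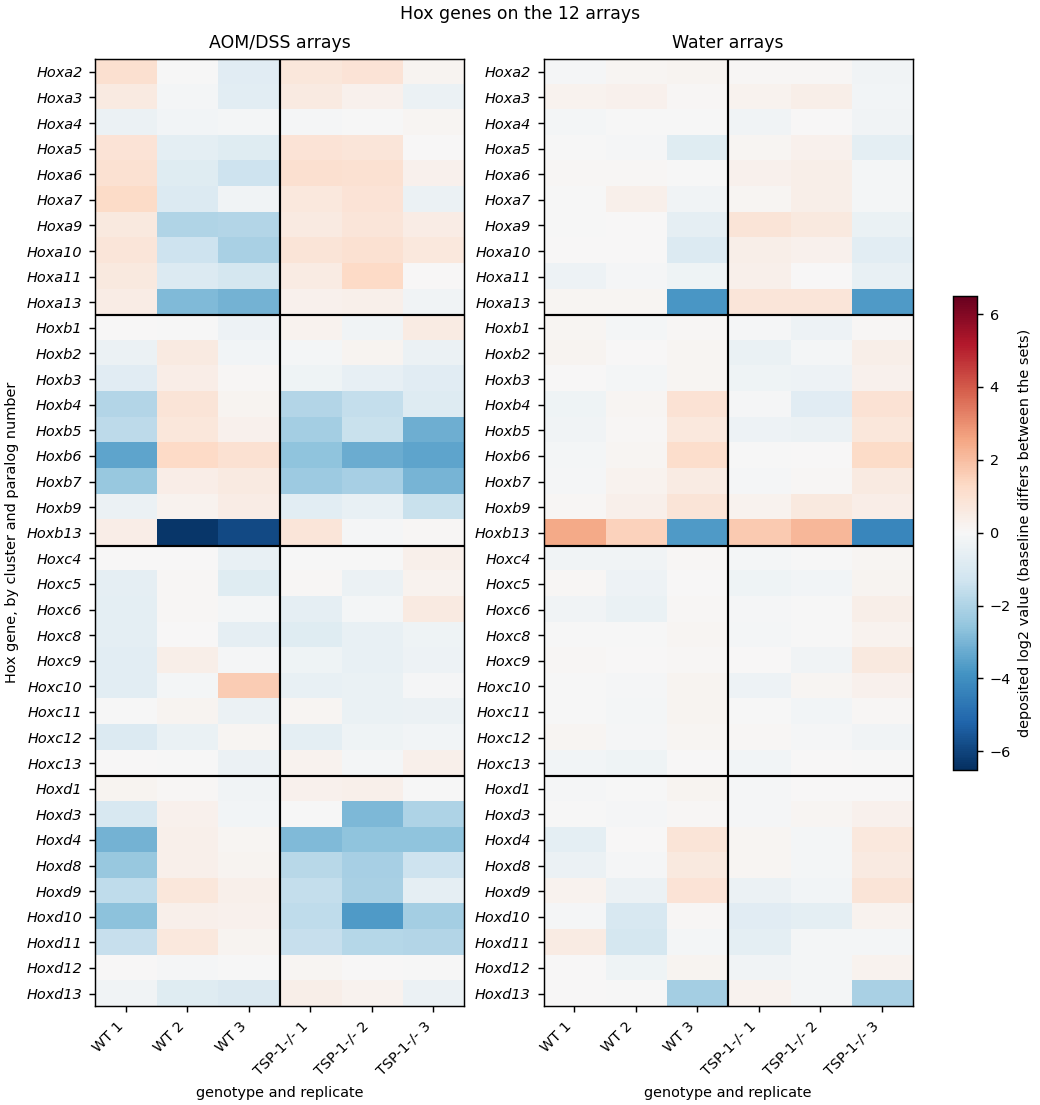
Deposited log2 value (colour) of the 37 Hox genes (rows, by cluster and paralog number) on the 6 AOM/DSS arrays (left) and the 6 water arrays (right), with columns labelled by genotype and replicate. Hoxa9 to Hoxa13 and Hoxb13 were low on WT AOM/DSS replicates 2 and 3, Hoxb4 to Hoxb7 and Hoxd4 to Hoxd11 were low on the other 4 AOM/DSS arrays, and Hoxa13, Hoxb13 and Hoxd13 were low on water replicate 3 of both genotypes.

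Hoxb13, the last gene of its cluster and a marker of the distal colon and prostate, had the widest range of all members in both sets. Its values were 0.43, -6.33 and -5.89 on WT AOM/DSS replicates 1, 2 and 3, and 0.78, -0.06 and 0.06 on the TSP-1-/- AOM/DSS arrays. On water it stood at 2.48, 1.52 and -3.68 in WT and at 1.70, 2.17 and -4.24 in TSP-1-/-. The low arrays of the AOM/DSS set were thus WT replicates 2 and 3, and WT replicate 1 lay within the range of the TSP-1-/- arrays. On water the low arrays were replicate 3 of each genotype.

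Hoxa13, which patterns the hindgut and the urogenital tract, went the same way. It stood at 0.48, -2.86 and -3.09 on the WT AOM/DSS arrays and at 0.28, 0.31 and -0.23 on the TSP-1-/- AOM/DSS arrays. The water values were 0.11, 0.14 and -3.78 in WT and 0.79, 0.78 and -3.68 in TSP-1-/-. The same arrays were low as for Hoxb13, and the genotypes overlapped in both sets. Hoxd13, the third measured gene with a strong drop on water replicate 3, stood at 0.01, -0.05 and -2.22 in WT and at 0.25, -0.15 and -2.09 in TSP-1-/- there. On AOM/DSS arrays Hoxd13 was at -0.23, -0.77 and -0.95 in WT and at 0.39, 0.23 and -0.40 in TSP-1-/-. Its WT values reached down less far than those of Hoxa13, and the genotypes overlapped through WT replicate 1.

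The other members of the highest paralog groups had narrower ranges. Hoxd12, which lies beside Hoxd13, was between -0.09 and 0.14 on the AOM/DSS arrays and between -0.29 and 0.24 on water. Hoxc13, a gene of hair follicles and nails, ranged from -0.40 to 0.33 on AOM/DSS and from -0.26 to 0.03 on water. Hoxc12 ranged from -0.90 to 0.15 and from -0.21 to 0.13. So of 6 measured genes in paralog groups 12 and 13, Hoxa13, Hoxb13 and Hoxd13 separated these arrays, and Hoxc12, Hoxc13 and Hoxd12 did not.

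**Figure D2:**
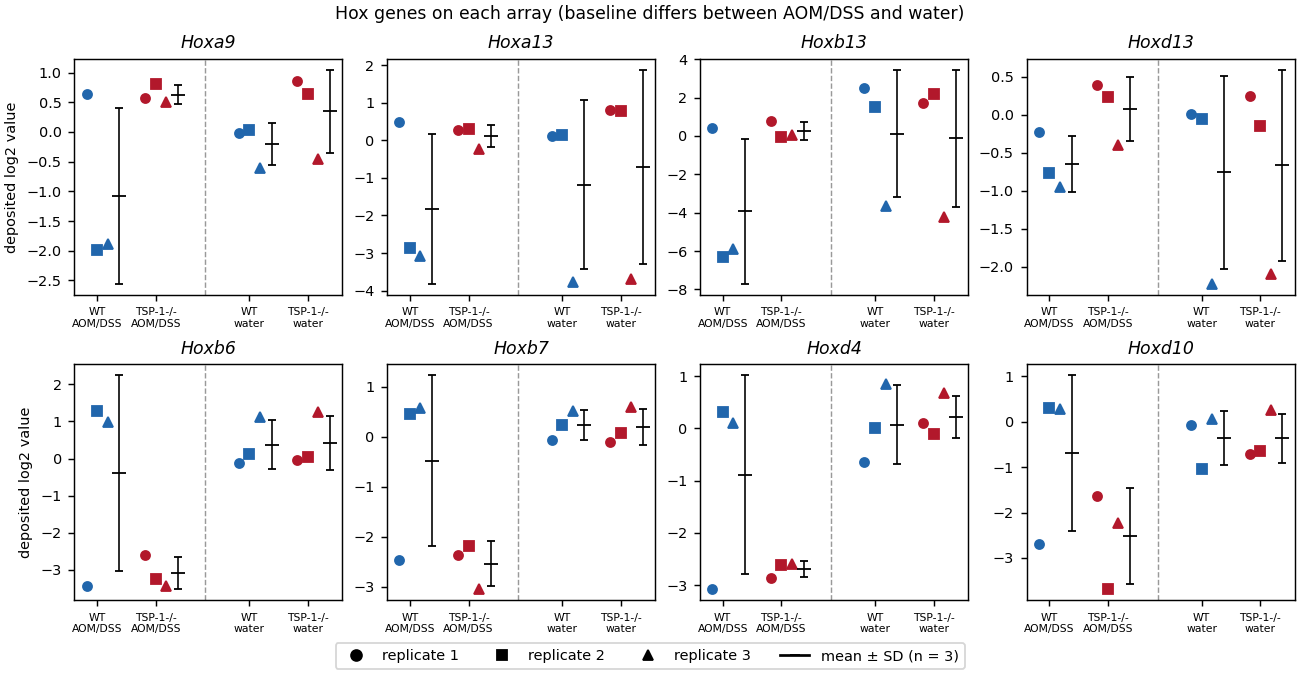
Deposited log2 value (y axis, scaled per gene) of 8 Hox genes on each array by group, with 1 symbol per replicate number and the mean ± SD of 3 arrays beside each group. WT AOM/DSS replicate 1 sits with the TSP-1-/- AOM/DSS arrays in Hoxa9, Hoxa13, Hoxb13, Hoxb6, Hoxb7, Hoxd4 and Hoxd10, and water replicate 3 of both genotypes sits apart from the other water arrays in Hoxa13, Hoxb13, Hoxd13, Hoxb6 and Hoxd4.

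Within the Hoxa cluster the contrast between arrays was wider at the higher paralog numbers. The median of Hoxa2 and Hoxa3 was 0.80, -0.07 and -0.72 on the WT AOM/DSS arrays and 0.67, 0.58 and -0.09 on the TSP-1-/- AOM/DSS arrays. For Hoxa9, Hoxa10 and Hoxa11, which pattern the trunk, limbs and reproductive tract, the median was 0.65, -1.36 and -1.88 in WT and 0.57, 1.01 and 0.50 in TSP-1-/-. WT replicates 2 and 3 were the lowest arrays for the latter genes. Hoxa4 was the exception in the cluster, with values from -0.37 to 0.13 over the AOM/DSS arrays. On water replicate 3 the median of Hoxa9 to Hoxa11 was -0.61 in WT and -0.47 in TSP-1-/-, and on the other water arrays it lay between -0.03 and 0.36.

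The middle of the Hoxb cluster ran the opposite way. Hoxb6, a gene of the trunk and gut mesoderm, stood at -3.44, 1.28 and 0.98 on the WT AOM/DSS arrays and at -2.60, -3.25 and -3.43 on the TSP-1-/- arrays. Its neighbour Hoxb7 was at -2.45, 0.45 and 0.57 in WT and at -2.37, -2.18 and -3.05 in TSP-1-/-. Both were high on the arrays that were low in Hoxb13, although all these genes lie in 1 cluster. Hoxb5, which takes part in forming the enteric nervous system, was at -1.70, 0.71 and 0.29 in WT and at -2.21, -1.44 and -3.17 in TSP-1-/-. For Hoxb4 the values were -1.92, 0.85 and 0.17 in WT and -1.89, -1.53 and -0.86 in TSP-1-/-. In each of these genes WT replicate 1 lay apart from the other two WT arrays. Hoxb9 alone of the Hoxb genes had all its TSP-1-/- AOM/DSS values, -0.71, -0.50 and -1.43, below all its WT values, -0.40, 0.24 and 0.47. Hoxb1, the first gene of the cluster and a hindbrain gene, ranged from -0.32 to 0.53 over the AOM/DSS arrays.

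On the water arrays the middle Hoxb genes moved by less. Hoxb6 stood at -0.12, 0.11 and 1.13 in WT and at -0.03, 0.03 and 1.26 in TSP-1-/-. Hoxb4 stood at -0.26, 0.12 and 0.94 in WT and at -0.08, -0.76 and 0.96 in TSP-1-/-. Replicate 3 was the highest array of its genotype for both genes, and the genotypes overlapped. Hoxb7 was at -0.07, 0.25 and 0.53 in WT and at -0.09, 0.08 and 0.61 in TSP-1-/-, again highest on replicate 3.

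Hoxd4 and Hoxd8 to Hoxd11 resembled the middle Hoxb genes on the AOM/DSS arrays. Hoxd4 stood at -3.08, 0.32 and 0.11 in WT and at -2.87, -2.61 and -2.60 in TSP-1-/-. Hoxd10, a gene of the lumbar spinal cord and limb, was at -2.68, 0.31 and 0.28 in WT and at -1.65, -3.69 and -2.23 in TSP-1-/-. WT replicate 1 was the lowest array for Hoxd4 and lay inside the TSP-1-/- range for Hoxd10. Hoxd8 was at -2.46, 0.34 and 0.16 in WT and between -2.14 and -1.33 in TSP-1-/-. Hoxd9 was at -1.67, 0.72 and 0.35 in WT and between -2.12 and -0.60 in TSP-1-/-. Hoxd11 was at -1.52, 0.66 and 0.20 in WT and between -1.92 and -1.51 in TSP-1-/-. Hoxd8, Hoxd9 and Hoxd11 were all low on WT replicate 1, so the genotypes overlapped. Hoxd3 shared the pattern in part, at -1.05, 0.26 and -0.16 in WT and between -2.94 and -0.03 in TSP-1-/-, where replicate 1 was highest. The break in the cluster lay between Hoxd11 and Hoxd13, with Hoxd12 flat, and Hoxd1 at the other end ranged from -0.23 to 0.34 over the AOM/DSS arrays.

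On water, Hoxd4 was at -0.64, 0.01 and 0.86 in WT and at 0.10, -0.10 and 0.68 in TSP-1-/-, highest on replicate 3 of each genotype. Hoxd8 and Hoxd9 were also highest on replicate 3, at 0.66 and 0.89 in WT and at 0.57 and 0.84 in TSP-1-/-. Hoxd11 did not share this order, since its highest water value, 0.52, was on WT replicate 1 and its lowest, -1.14, on WT replicate 2. Hoxd10 was at -0.08, -1.05 and 0.06 in WT and at -0.71, -0.64 and 0.25 in TSP-1-/-.

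Hoxc genes gave little contrast. The median of the 9 genes lay between -0.63 and 0.03 over the AOM/DSS arrays and between -0.13 and 0.16 over the water arrays. Hoxc10 was the 1 member with a wide range, through a single high value of 1.65 on WT AOM/DSS replicate 3. Its other AOM/DSS values lay between -0.70 and -0.09.

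The arrays can be set side by side over all 37 Hox genes at once. WT AOM/DSS replicate 1 correlated with TSP-1-/- replicates 1, 2 and 3 at Pearson r of 0.96, 0.93 and 0.81 across genes. It correlated with WT replicates 2 and 3 at -0.51 and -0.53, and replicates 2 and 3 correlated with each other at 0.92. Over all probes WT replicate 1 correlated with the TSP-1-/- arrays at 0.42, 0.48 and 0.20, and with WT replicates 2 and 3 at 0.02 and 0.09. On water, WT replicate 3 and TSP-1-/- replicate 3 correlated at 0.98 over the Hox genes, and at -0.39 to -0.75 with the other 4 arrays of the set. Those 4 arrays correlated with each other at 0.52 to 0.84. Over all probes the replicate 3 pair correlated at 0.58, and the other 4 water arrays with each other at 0.32 to 0.68. With those 4 arrays, WT replicate 3 correlated over all probes at 0.15 to 0.53 and TSP-1-/- replicate 3 at -0.04 to 0.34. These correlations are over genes, which are not independent replicates and share a common baseline within a set, and they are given as a description.

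**Figure D3:**
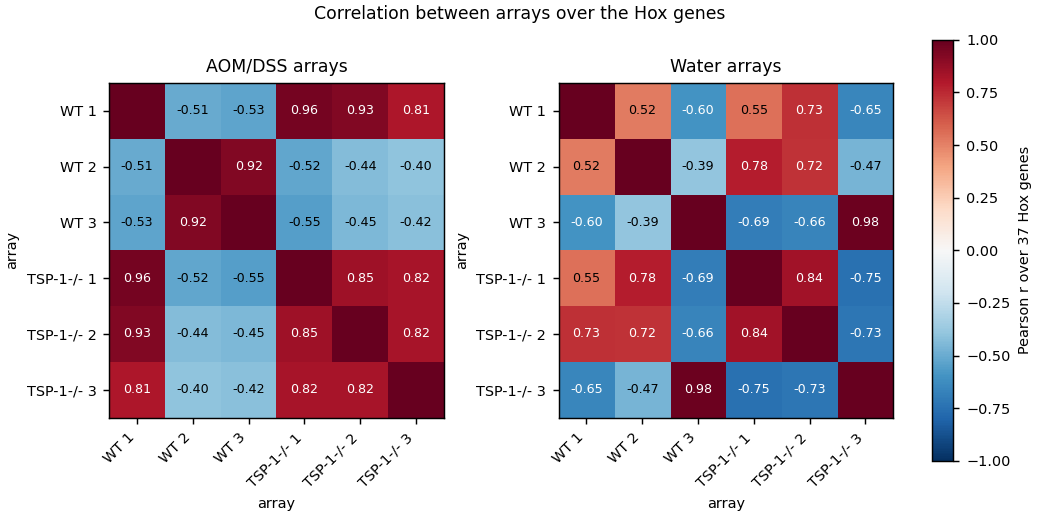
Pearson correlation over the 37 Hox genes (number and colour in each cell) between each pair of AOM/DSS arrays (left) and each pair of water arrays (right), with arrays labelled by genotype and replicate. WT AOM/DSS replicate 1 correlates at 0.81 or more with each TSP-1-/- AOM/DSS array and at -0.51 and -0.53 with the other WT arrays, and water replicate 3 of the 2 genotypes correlate at 0.98.

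The comparison of genotypes asked whether Hox transcripts differed between TSP-1-/- and WT colon. After AOM/DSS, limma called 500 probes higher in TSP-1-/- (1.74% of 28815) and 302 lower (1.05%), at an adjusted p under 0.05 and at least 2-fold. With each array centred on its median the split was 396 higher and 414 lower. No Hox gene was called in either direction, and 12 of 37 had an unadjusted p under 0.05 in limma, a share near the 32.3% of all probes that did. The median log2 difference was 0.08 over the Hox genes and 0.13 over all probes. All 10 Hoxa genes had a positive difference, with a median of 0.92. The median was -0.98 over Hoxb, 0.03 over Hoxc and -1.22 over Hoxd, and the Hoxc median became -0.04 when each array was centred on its median.

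Of single members, the lowest adjusted p belonged to Hoxb5, with a log2 difference of -2.04 ± 0.59 (SE, n = 3 per group; limma, adjusted p = 0.0527). Hoxb9 differed by -0.98 ± 0.29 (adjusted p = 0.0529), Hoxb7 by -2.05 ± 0.62 (adjusted p = 0.0578) and Hoxd11 by -1.54 ± 0.50 (adjusted p = 0.0680). Hoxb6 differed by -2.70 ± 0.96 (adjusted p = 0.0853). Hoxb13 had the largest difference, 4.19, with a 95% confidence interval from -0.33 to 8.71 (adjusted p = 0.182). For Hoxa13 the difference was 1.94, with an interval from -0.97 to 4.85. The SD over the WT AOM/DSS arrays was 3.78 for Hoxb13 and 2.64 for Hoxb6, against 0.46 and 0.44 over the TSP-1-/- AOM/DSS arrays. The SEs, intervals and adjusted p values above come from a fit that pools the spread of the AOM/DSS and water arrays. With limma on only the 6 AOM/DSS arrays, adjusted p was 0.157 for Hoxb5 and 0.174 for Hoxb7. It was 0.159 for Hoxd11, 0.201 for Hoxb6 and 0.179 for Hoxb13 in that fit, which called no Hox gene.

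All 3 TSP-1-/- AOM/DSS arrays lay above all 3 WT arrays for 1 of 37 Hox genes, Hoxa4, and below them for 1, Hoxb9. Over all probes these shares were 20.2% and 10.7%. On the water arrays no Hox gene lay wholly above or below, where 2.29% and 2.88% of all probes did.

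The result turned on 1 array. Without WT AOM/DSS replicate 1, limma called 6 Hox genes higher and 10 lower, where 2.5% and 2.16% of all probes were called. Those called higher in TSP-1-/- were Hoxa2, Hoxa5, Hoxa6, Hoxa9, Hoxa10 and Hoxa11. Those called lower were Hoxb4 to Hoxb7, Hoxb9, Hoxd4 and Hoxd8 to Hoxd11. Hoxb6 then differed by -4.22 ± 0.44 (SE; adjusted p = 0.000503) and Hoxd4 by -2.91 ± 0.36 (adjusted p = 0.00152). Hoxa10 differed by 2.58 ± 0.36 (adjusted p = 0.00275). Hoxb13 differed by 6.37 ± 1.92 and was not called (adjusted p = 0.0547). That fit held 2 WT AOM/DSS arrays. The array left out was the 1 that these same Hox values set apart, so its p-values are no separate test. The stretch of colon behind each array is not given, and its part in these differences was not tested.

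**Figure D4:**
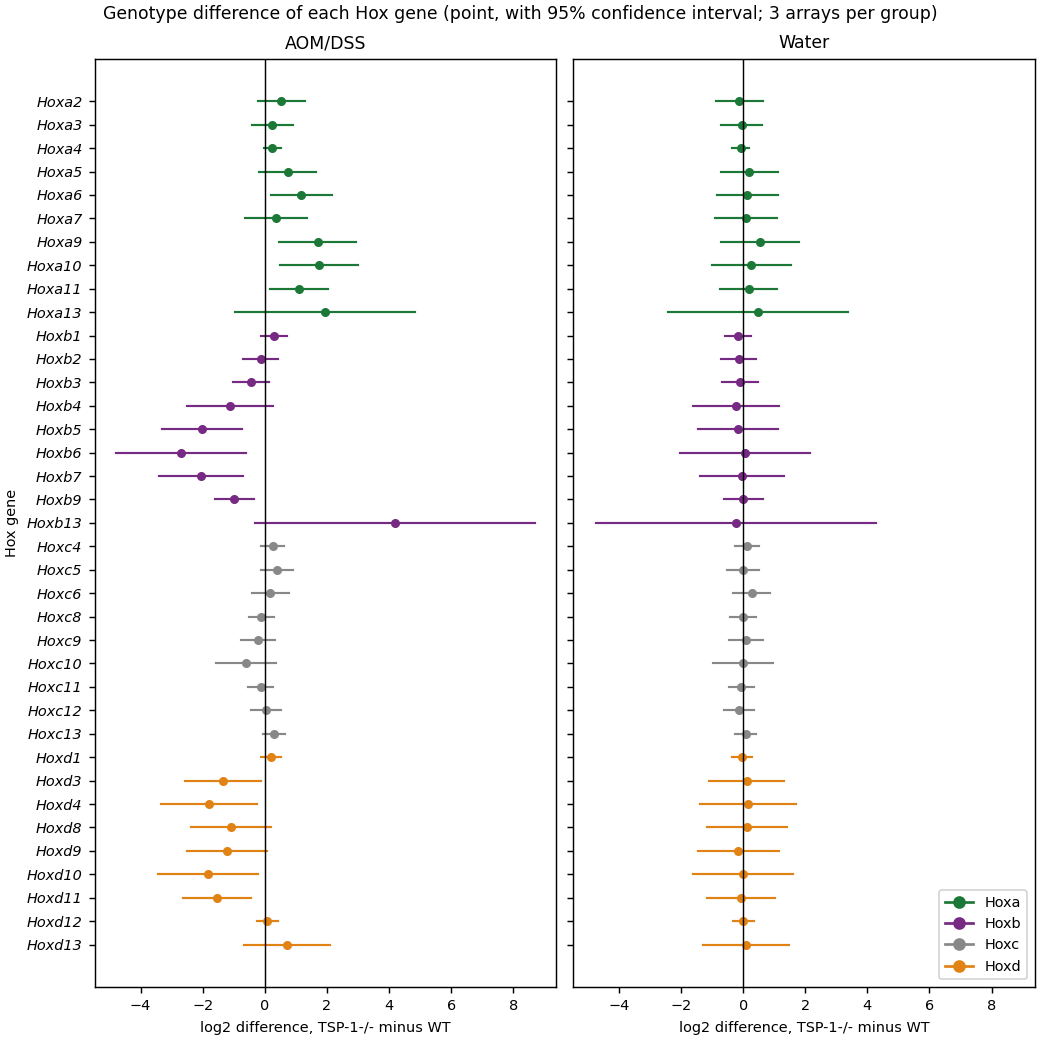
Log2 difference, TSP-1-/- minus WT (x axis), of each Hox gene (rows, coloured by cluster) with its 95% confidence interval from limma, for the AOM/DSS arrays (left) and the water arrays (right), 3 arrays per group. After AOM/DSS the Hoxa points lie above 0 and most Hoxb and Hoxd points below it, with Hoxb13 at 4.19, and on water every interval includes 0.

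On water, limma called no probe at all (0%), and 288 of 28815 probes (0.999%) and no Hox gene had an unadjusted p under 0.05. Hox differences ranged from -0.23 for Hoxb13 to 0.55 for Hoxa9. The interval for Hoxb13 ran from -4.76 to 4.29 and that for Hoxa13 from -2.44 to 3.38, so differences of several log2 units were not detectable for these genes with 3 arrays per group. For Hoxb9 the interval was -0.62 to 0.63. The difference between the genotype effects in the 2 sets was called for 2 probes (0.00694%) and for no Hox gene, 3 of which (Hoxb5, Hoxb7 and Hoxb9) had an unadjusted p under 0.05 in limma, where 15.4% of all probes did. Without WT AOM/DSS replicate 1, which the Hox values set apart, that difference was called for 1.01% of all probes and 5 Hox genes. Hoxa6 was positive and Hoxb6, Hoxb7, Hoxd4 and Hoxd8 were negative.

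Genes that lie in or beside the clusters were measured on 21 features of 19 genes, and none was called in either set. Hottip, a long noncoding RNA beyond Hoxa13, stood at 1.58, -2.94 and -3.58 on the WT AOM/DSS arrays and at 1.19, 1.28 and -0.07 on the TSP-1-/- arrays. Mir196b, between Hoxa9 and Hoxa10, was at 0.93, -0.87 and -1.48 in WT and at 0.33, 0.48 and 0.22 in TSP-1-/-. Both were lowest on WT replicates 2 and 3, as were Hoxa9, Hoxa10, Hoxa11 and Hoxa13. The other features with the same seed did not share this order. Mir196a-1 in the Hoxb cluster was at -0.25, -0.50 and 0.57 in WT and at 0.09, -0.16 and -0.73 in TSP-1-/-, and Mir196a-2 in the Hoxc cluster was at -0.29, -0.01 and 0.06 in WT and at -0.29, -0.50 and -0.70 in TSP-1-/-. Mir10a ranged from -0.21 to 0.40 and Mir10b from -0.88 to 0.07 over the AOM/DSS arrays.

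Of 17 measured position genes other than Hox, limma called none higher and 2 lower in TSP-1-/- AOM/DSS, and none on water. The called genes were Osr2, an odd-skipped zinc finger factor, and Isx, an intestinal homeobox gene. Their log2 differences were -3.73 (limma, adjusted p = 0.0491) and -2.10 (adjusted p = 0.0272). Of all probes, 1.74% were called higher and 1.05% lower after AOM/DSS. The fit on only the 6 AOM/DSS arrays called 5 probes higher and 1 lower. For genes other than Hox the alternative fits were not read gene by gene. Osr2 stood at -4.13, 0.94 and 1.19 in WT and at -4.16, -4.53 and -4.50 in TSP-1-/-. Slc10a2, the ileal bile acid transporter, was at -4.31, 0.81 and 0.46 in WT and between -4.21 and -3.32 in TSP-1-/-. WT replicate 1 again lay beside the TSP-1-/- arrays for both genes. Insl5, a hormone of colonic enteroendocrine cells, ran the other way, with 1.00, -2.59 and -3.03 in WT and 0.92, -0.38 and -0.71 in TSP-1-/-. On water replicate 3 Insl5 was at -2.73 in WT and -3.36 in TSP-1-/-, while the other water arrays lay between -0.12 and 0.47. Cdx1 and Cdx2, caudal factors that act on Hox clusters, had differences of -0.75 and -1.10 and were not called. Cdx4, the third caudal factor, differed the other way, by 0.82 (limma, adjusted p = 0.0241), and was under 2-fold. No gene was called among 8 TALE cofactors of Hox proteins or among 26 Polycomb, trithorax and caudal regulators.

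**Figure D5:**
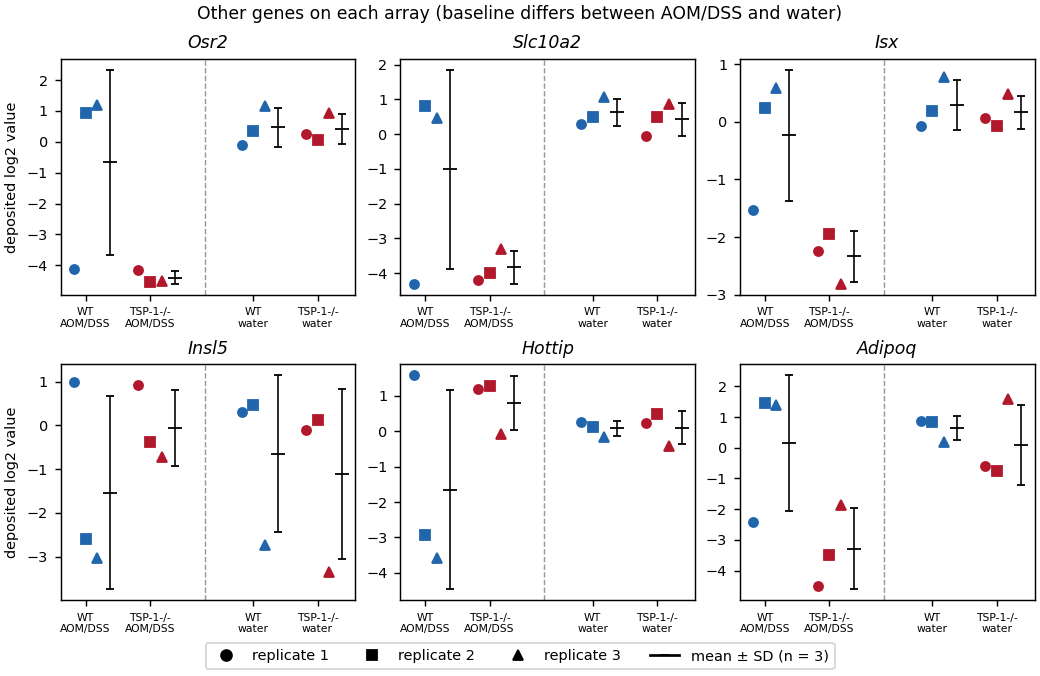
Deposited log2 value (y axis, scaled per gene) of 6 genes outside the Hox families on each array by group, with 1 symbol per replicate number and the mean ± SD of 3 arrays beside each group. Osr2, Slc10a2, Isx and Adipoq are high and Insl5 and Hottip low on WT AOM/DSS replicates 2 and 3, and Insl5 is low on water replicate 3 of both genotypes.

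Markers of the cell types in the colon wall were read on the same arrays. Of 8 epithelial markers, 8 of smooth muscle and 7 of enteric neurons and glia, none was called after AOM/DSS. Of all probes, 1.74% were called higher and 1.05% lower. The median epithelial marker lay between -0.02 and 0.21 over the WT AOM/DSS arrays and between -0.48 and 0.02 over the TSP-1-/- arrays. Median smooth muscle markers lay between -0.05 and 0.33 in WT and between -0.80 and 0.16 in TSP-1-/-. On WT replicates 1, 2 and 3 the epithelial medians were 0.21, -0.02 and 0.21. The smooth muscle medians there were 0.33, -0.05 and -0.04. Of 5 adipocyte genes, Adipoq, Lep, Cidec and Retn were lower on WT replicate 1 than on the other WT arrays, and Cidec and Retn were called lower in TSP-1-/-. Adipoq had the widest contrast, at -2.40, 1.46 and 1.40 in WT and between -4.49 and -1.87 in TSP-1-/-, and Plin1 had none, at -0.05, 0.56 and -0.04 in WT and between -0.04 and 0.40 in TSP-1-/-. Leukocyte markers were called higher for 3 of 6, and their median was highest on TSP-1-/- replicate 3, at 2.96. The same array held pancreatic enzyme transcripts, with a median of 6.01 over 6 genes against -0.22 to 0.02 on the other AOM/DSS arrays. Of 8 fibroblast markers 1 was called higher, and 2 of 8 squamous markers were, Krt14 and Krt4. The uncalled squamous markers ran from -1.40 for Sprr1a to 0.75 for Krt13, with Krt10 at -0.22 and Krt5 at 0.09. Of 8 markers of small intestinal epithelium, only Alpi was called, lower in TSP-1-/-. Sis, Fabp6, Fabp1 and Fabp2 differed by -2.45, -1.41, -1.12 and -0.75, and Lct, Apoa1 and Apoa4 by 0.15, -0.14 and 0.17. Sis stood at -3.08, 1.62 and 0.58 in WT and between -2.98 and -2.57 in TSP-1-/-. On water no marker of any list was called. The median smooth muscle marker was 0.11 and 0.07 on water replicate 3 of WT and TSP-1-/-, and between -0.38 and -0.04 on the other water arrays. The part of these cell types in the Hox differences was not tested.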

How the data were processed

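Colon RNA of 12 mice was hybridized to Affymetrix MoGene 1.0 ST arrays. The authors summarized the signals with PLIER16, quantile normalized them and deposited log2 values relative to a per-probe baseline, described as the median of 12 samples. In the deposited columns 3.35% of probes had a 12-array median within 0.0001 of 0, and 38 probes lacked values on the water arrays. Levels were therefore not compared between AOM/DSS and water arrays. Arrays have no read depth, and 3 arrays per group limit the precision. The SD over all probes was 0.75 on the array with the widest spread, 0.45 on the next and 0.29 on the narrowest.

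Groups came from the sample titles. Of 28853 probes, 28815 had all values and 21789, 1621 and 5443 had 1 gene symbol, several or none. limma 3.58.1 (R 4.3.3) was fitted with 1 mean per group on all 12 arrays, adjusted by Benjamini-Hochberg over all probes, and tested on simulated data. Genes were called at an adjusted p under 0.05 and at least 2-fold. Nothing tells whether arrays of a group share a cage or litter. Values were given for the 6 members with the widest range in each set, paralog groups 12 and 13, and Hoxb6, Hoxb7, Hoxd4, Hoxb1, Hoxd1 and Hoxd8 to Hoxd11; values of other members and of Thbs1 were chosen after they were seen. Members and lists were chosen with earlier results of these data known. Alternatives were another scaling, variance model, probe filter, a fit on only the 6 arrays of 1 set, a replicate block and leaving out each array.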

Additional observations from a re-analysis of the deposited data

How the results depend on the processing

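The count of Hox genes called after AOM/DSS depended on the arrays kept. Leaving out 1 array at a time gave 0 to 6 Hox genes called higher, 0 to 10 called lower, and 0 to 5 called for the difference between sets, with the highest counts all without WT AOM/DSS replicate 1. Without TSP-1-/- AOM/DSS replicate 1, Hoxd3 was called lower, and without replicate 2, Hoxb5 and Hoxb9. Centring each array on its median called 2 lower (Hoxb5 and Hoxb9), and testing only probes with 1 gene symbol called 1 lower (Hoxb5). On water no Hox gene was called under any alternative run, including one without both water arrays numbered 3, chosen after seeing the data. The replicate block called 1 Hox gene higher (Hoxa10). Over all probes, same-numbered arrays of the 2 genotypes deviated together at r of 0.03, -0.04 and -0.02 after AOM/DSS and 0.09, 0.28 and 0.40 on water. Over the Hox genes r was 0.06, -0.24 and 0.29 after AOM/DSS and 0.80, 0.81 and 0.97 on water. There, WT replicate 1 with TSP-1-/- replicate 2 gave 0.89, and WT replicate 2 with TSP-1-/- replicate 1 gave 0.91. Water pairs of replicate 3 with another number lay between -0.94 and -0.87. Not every same-numbered pair exceeded 0.1 over all probes, so the numbers were not taken as pairs. A block within each set, chosen after seeing the data, called none. The Hoxa13 difference on water changed sign, uncalled, without WT replicate 3 or TSP-1-/- replicate 1 or 2. It was the only 1 of 13 named differences over 0.3 log2 units whose direction changed under any alternative run. Over all probes, calls after AOM/DSS numbered 802 with all arrays and 6 to 1403 under the alternatives with the same threshold. The fit on only the 6 AOM/DSS arrays gave the fewest, 5 higher and 1 lower. Centring gave 396 higher and 414 lower, and quantile normalization again gave 78 and 105, with the median difference over all probes moving from 0.13 to 0.02. The variability filter left 27 Hox genes.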
